A study of Homo sapiens with 5 samples.

Results

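The axon guidance ligands and receptors of human embryonic stem cells are described here across control samples and CFIm25-mutated clones. The family was taken as the protein-coding genes in the deposited table whose symbols begin with SEMA, PLXN, EFNA, EFNB, EPHA or EPHB, together with the neuropilins, the slits, the robos, 2 netrins, DCC and the UNC5 receptors. This gave 66 of 33857 listed genes: 20 semaphorins, 11 plexins and neuropilins, 8 ephrins, 14 Eph receptors, 6 slits and robos, and 7 netrins and netrin receptors. The rule used symbols only and no measured value, but the family was chosen with earlier results of these data known.

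Poly(A+) RNA was sequenced from H9, a line of human embryonic stem cells grown in mTeSR medium, in 2 mock control and 3 CFIm25-m samples. CFIm25, encoded by NUDT21, is a subunit of the cleavage factor that binds nascent mRNA near its poly(A) site. Per the study's methods, each CFIm25-m sample is a separate CRISPR/Cas9-edited clone that keeps some CFIm25 with a short N-terminal deletion, although the labels name the edit a knockout. Per the study, its mock controls are 2 clones that received the empty CRISPR/Cas9 vector. The labels name these samples only as control H9 cells, so that each is such a clone is not given by them. Per the study's methods, cultures were selected on puromycin before single-cell clones were picked. The labels give no treatment beyond the edit. An edited clone is its own sample, so an edit and the history of its clone cannot be told apart within a replicate. The p-values measure the spread between these samples, moderated by the spread of other genes of similar level.

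Axon guidance genes encode secreted or membrane-bound cues and the receptors that read them on the growth cone. Semaphorins signal through plexins, with neuropilins as co-receptors for most of the secreted class. Ephrins bind Eph receptor tyrosine kinases on neighbouring cells, slits bind robos, and netrins bind DCC, which mediates attraction, and UNC5 receptors, which mediate repulsion. Many of these genes are also expressed outside the nervous system, where they act in adhesion, migration and the shaping of tissues. DCC and the UNC5 receptors are in addition known as dependence receptors, which can trigger cell death when they are not bound by ligand.

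The edited gene was checked first. NUDT21 had normalized counts (reads over the sample's size factor) of 6503 and 6398 in mock control replicates 1 and 2, and of 4035, 3281 and 3400 in CFIm25-m replicates 1, 2 and 3. It was lower in every edited clone, with a log2 fold change of -0.86 (SE, the standard error, 0.11, adjusted p = 0.00431, limma-trend). Depth was similar, from 18754108 to 22466365 reads per mock control and from 20742606 to 23372391 per edited clone. All 14 pluripotency markers looked at, such as POU5F1, SOX2 and NANOG, were tested and none passed the threshold in limma-trend or edgeR. In each, 3 had an unadjusted p below 0.05, beside 15.1% of all tested genes in limma-trend. In limma-trend these were LIN28A, DNMT3B and SALL4, all lower, with log2 fold changes of -0.41, -0.33 and -0.35. DESeq2 called SALL4 lower. REX1 is not among the markers looked at. The study names it as a pluripotency marker and reports it as lower in the edited clones. The list thus does not show that all such markers kept their level. The summed normalized count of the 14 markers was 257876 to 262083 in mock control and 235309 to 243670 in CFIm25-m. In such bulk samples, fewer cells of a type and less RNA per cell cannot be told apart.

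Of the 66 guidance genes, 65 passed the filter for low counts (2 or more samples with a normalized count of 10 or more) and were tested with limma-trend on log2(normalized count + 1). EPHA3, an Eph receptor, was left out, for which mock control replicates 1 and 2 held 1 and 0 reads and CFIm25-m replicates 1, 2 and 3 held 3, 2 and 2. At an adjusted p below 0.05, with adjustment over all 19232 tested genes, 3 guidance genes rose in CFIm25-m and 2 fell. The genes that rose were UNC5C, DCC and UNC5D, and those that fell were NRP1 and SEMA6A. They make up 4.62% and 3.08% of the tested family, against 0.941% of all tested genes called higher and 0.936% called lower. Of the 14801 tested protein-coding genes, 1.04% were called higher and 0.973% lower. These counts depend on single samples: without mock control replicate 1 or 2 no guidance gene was called, without CFIm25-m replicate 1 the calls were 0 higher and 1 lower, without replicate 2 they were 1 and 3, and without replicate 3 they were 7 and 5. In 19 guidance genes every edited clone lay above both mock controls, and in 15 every clone lay below them. These are 29.2% and 23.1% of the tested family, beside 17.0% and 19.8% of all tested genes. Among tested protein-coding genes, as the family is by its rule, the shares were 15.6% and 23.0%. The family's lower share is thus near that of protein-coding genes. An unadjusted p below 0.05 was reached by 20 guidance genes, 12 higher and 8 lower. This is 30.8%, against 15.1% of all tested genes and 15.8% of tested protein-coding genes. As the family was chosen with earlier results known, these shares are a description and not a test.

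The family did not move in a single direction. The log2 fold change was above 0 in 31 and below 0 in 34 of the 65 tested genes, with a median of -0.03, beside -0.01 for all tested genes, but with total read count scaling it was above 0 in 39 and below 0 in 26. The 8 genes that turned were EFNA4, EPHB6, NTN1, PLXNA4, PLXNB2, ROBO1, SEMA3D and SLIT1, none of them more than 0.060 from 0 before. The median size of the log2 fold change, regardless of sign, was 0.30 in the family and 0.17 in all tested genes. A size above 1 was found in 5 guidance genes, or 7.69%, against 4.10% of all tested genes. The lowest and highest values were -1.22 for NRP1 and 2.12 for DCC.

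**Figure D1:**
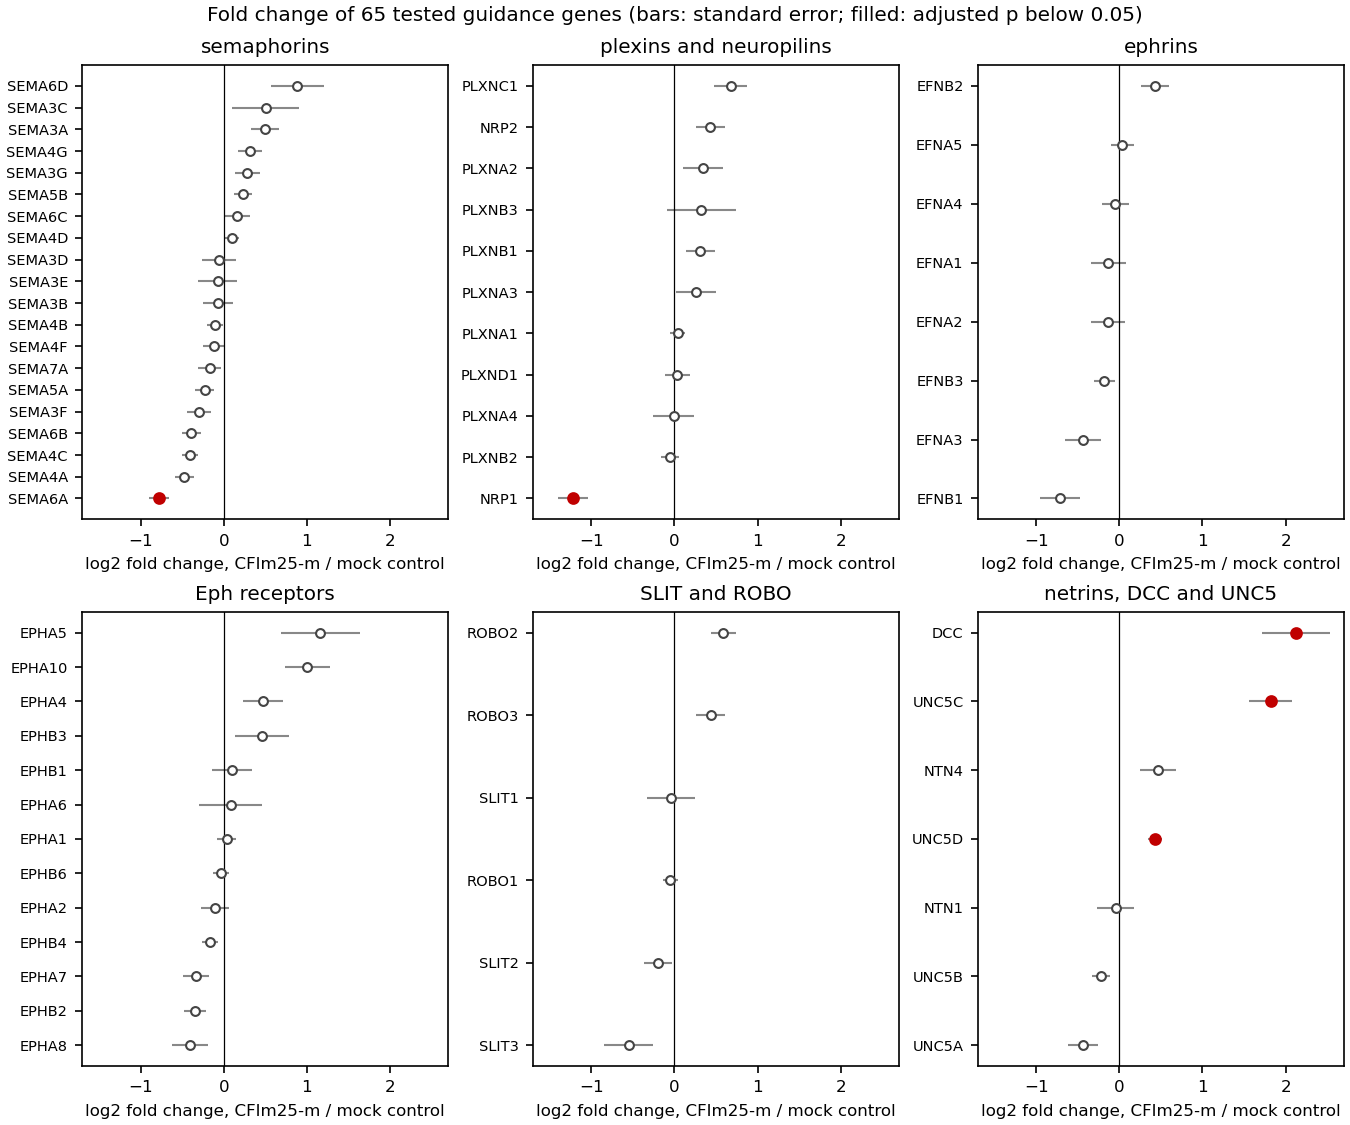
Log2 fold change (CFIm25-m over mock control, x axis) of the 65 tested guidance genes, 1 panel for each of 6 families, with bars for the standard error and filled points for an adjusted p below 0.05. The filled points are DCC, UNC5C and UNC5D on the right of 0 and NRP1 and SEMA6A on the left, while the medians of the families lie between -0.13 and 0.43.

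All 3 guidance genes that rose are receptors for netrin. DCC (ENSG00000187323), a receptor for attraction, spans chr18:52340172-53535903 on the plus strand in GRCh38. Its normalized count was 8.07 and 14.5 in mock control replicates 1 and 2, and 32.1, 56.7 and 71.2 in CFIm25-m replicates 1, 2 and 3. Every edited clone was above both controls, but the clones themselves spread widely, with replicate 1 the lowest. The mean was 11.3 ± 4.53 (SD, n = 2) in the controls against 53.3 ± 19.8 (SD, n = 3) in CFIm25-m. Its log2 fold change was 2.12 (SE 0.41, adjusted p = 0.0319, limma-trend), the largest increase among the guidance genes. These values rest on 7 and 15 reads in the controls and 32, 63 and 74 reads in the clones. The pooled ratio was 4.65 (exact 95% interval from 2.97 to 7.61), which covers counting error only. The call was lost when mock control replicate 1 (adjusted p = 0.281) or 2 (0.0777), or CFIm25-m replicate 1 (0.0502) or 2 (0.11), was left out. Over 15 alternatives the lowest adjusted p-value was 0.000164, from limma-trend with the replicate number as a block, although replicate numbers do not pair clones. The next lowest was 0.00214, from DESeq2 on the recovered reads. For the genes below, the low end of each range over alternatives also came from the fit with that block.

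The reference sequence just before DCC is shown because it is the guidance gene with the largest increase. It covers chr18:52339947-52340171 on the plus strand (RefSeq, GRCh38.p14) and ends at the base before the deposited start of the gene, with CG dinucleotides in capitals.
DCC: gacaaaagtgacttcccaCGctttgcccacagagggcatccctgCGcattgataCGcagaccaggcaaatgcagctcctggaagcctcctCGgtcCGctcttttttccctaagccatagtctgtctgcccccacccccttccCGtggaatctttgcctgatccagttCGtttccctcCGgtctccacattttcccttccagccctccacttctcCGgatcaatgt
The deposited start of DCC lies 25 bases before its RefSeq start, and all windows compared were cut at this distance from their own RefSeq starts. The bases shown hold 9 CG dinucleotides, the median of 35116 RefSeq windows of the same length. The 89 windows of the 57 guidance genes with an entry have a median of 17. The GC box GGGCGG, searched on both strands, is not among these letters. It is in 39.5% of all windows and 64.0% of those of the guidance genes. The annotation gives several windows to some genes, and a match is only a description. NRP1, SEMA6A and UNC5D have no entry in the table used.

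UNC5C (ENSG00000182168), a receptor that mediates repulsion by netrin, spans chr4:95162504-95549206 on the minus strand. Its normalized count was 21.9 and 19.3 in mock control replicates 1 and 2, and 80.2, 81.0 and 65.4 in CFIm25-m replicates 1, 2 and 3. All clones lay well above both controls and close to each other. The mean was 20.6 ± 1.84 (SD, n = 2) in the controls against 75.5 ± 8.78 (SD, n = 3) in CFIm25-m, with a log2 fold change of 1.82 (SE 0.26, adjusted p = 0.00722, limma-trend). The call was lost without mock control replicate 1 (adjusted p = 0.0703) or 2 (0.0896) and without CFIm25-m replicate 1 (0.0583), within a range of 2.69e-06 to 0.0896 over 15 alternatives. An antisense gene, AC106881.1, overlaps UNC5C, with normalized counts of 11.5 and 8.69 in mock control and 13.0, 30.6 and 10.6 in CFIm25-m (log2 fold change 0.65, adjusted p = 0.571, limma-trend). Whether reads were counted by strand is not given in the sources used here, so reads of this pair cannot be told apart. BMPR1B, a receptor for bone morphogenetic proteins that begins 4056 bases away, had an adjusted p of 0.92 (log2 fold change 0.08, limma-trend).

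UNC5D (ENSG00000156687), another UNC5 receptor, spans chr8:35235457-35796550 on the plus strand and was far more abundant than the other genes that rose. Its normalized count was 2358 and 2316 in mock control replicates 1 and 2, and 3177, 3160 and 3136 in CFIm25-m replicates 1, 2 and 3. The groups did not overlap and the samples within each group were nearly equal. The mean was 2337 ± 29.8 (SD, n = 2) in the controls against 3158 ± 20.8 (SD, n = 3) in CFIm25-m. The log2 fold change was 0.43 (SE 0.084, adjusted p = 0.0332, limma-trend), a small difference with a small error. The call was lost without mock control replicate 1 (adjusted p = 0.453) or 2 (0.495), without CFIm25-m replicate 1 (0.101) or 2 (0.067), and with no filter for low counts (0.0504). The range over 15 alternatives was from 4.88e-06 to 0.495. The pseudogene LSM12P1 lies within UNC5D on the opposite strand, with normalized counts of 245.5 and 456 in mock control and 508, 519 and 304 in CFIm25-m (adjusted p = 0.573, limma-trend).

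The remaining UNC5 receptors did not pass the threshold and had lower values in CFIm25-m. UNC5A had normalized counts of 285.8 and 293 in mock control and 233.5, 249 and 168 in CFIm25-m, with a log2 fold change of -0.43 (SE 0.18, adjusted p = 0.298, limma-trend). UNC5B, which is also known from blood vessels, had 1395 and 1474 in mock control and 1109, 1323 and 1270 in CFIm25-m, and the log2 fold change was -0.22 (adjusted p = 0.362, limma-trend). In both genes every clone lay below both controls. Thus of the 5 netrin receptors in the family, 3 rose and 2 had lower values that missed the threshold. They are not all receptors of netrins, as neogenin is outside the family and is given further below.

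Neither ligand passed the threshold. NTN1, the canonical netrin, had normalized counts of 348 and 352 in mock control and 451, 359 and 240.5 in CFIm25-m. The clones lay on either side of the controls, replicate 1 above and replicate 3 below. This gave a log2 fold change of -0.05, with a 95% interval from -0.54 to 0.45. NTN4, a netrin of basement membranes, had 63.4 and 72.4 in mock control and 80.2, 108 and 95.2 in CFIm25-m, and the log2 fold change was 0.46 (adjusted p = 0.356, limma-trend).

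Divided by gene length, the levels of the 5 netrin receptors in the family summed to 495 ± 6.81 (SD, n = 2) normalized counts per kb in the controls against 533 ± 18.8 (SD, n = 3) in CFIm25-m. Neogenin (NEO1), which also binds netrins, is outside the family and this sum. UNC5D made up 44.5% and 42.8% of this sum in mock control replicates 1 and 2, and 56.6%, 52.7% and 55.2% in CFIm25-m replicates 1, 2 and 3. The level of DCC per kb was only 0.857 in mock control and 4.05 in CFIm25-m, against 216 and 292 for UNC5D. UNC5C had 1.93 and 7.07. In both groups DCC was thus a very small part of the sum of these 5 genes, and UNC5D and UNC5B were the main part.

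**Figure D2:**
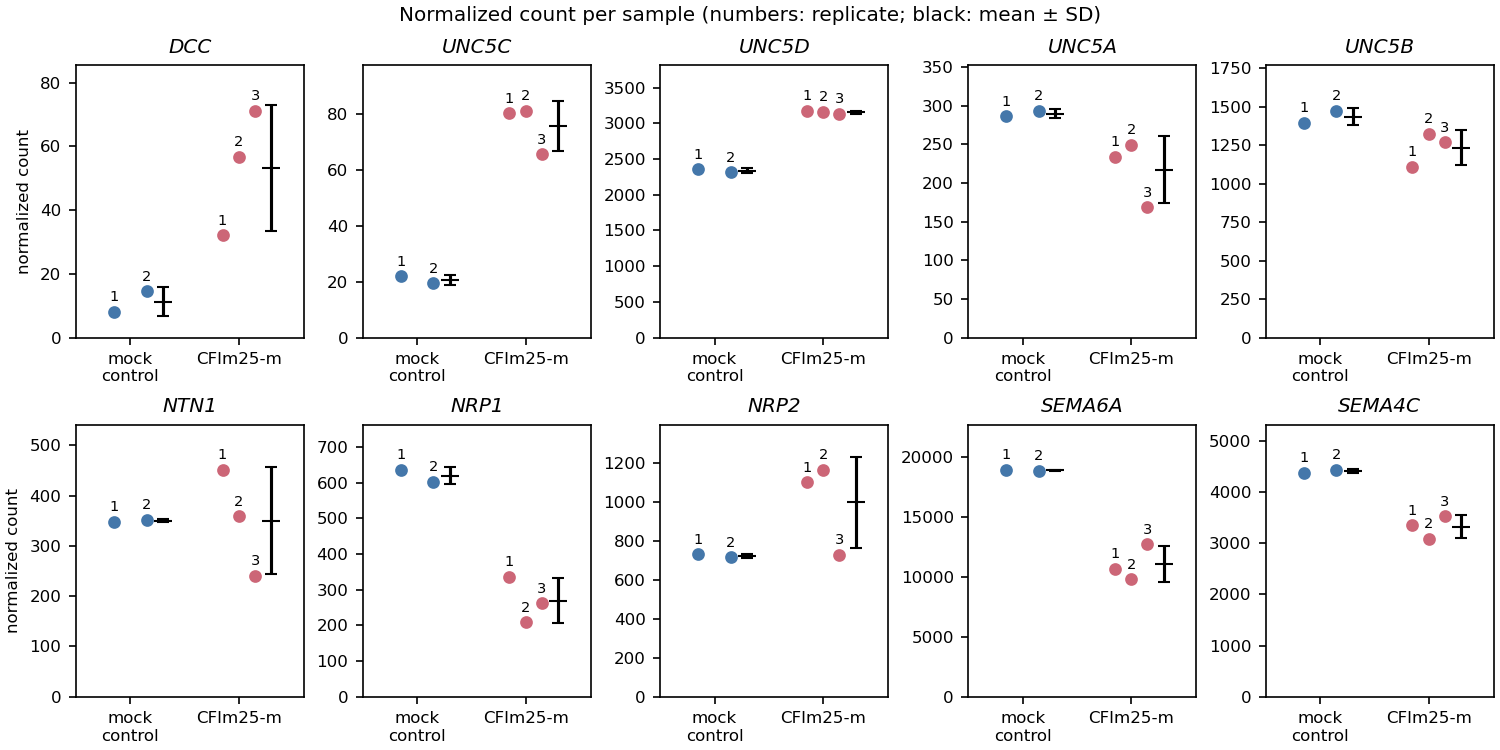
Normalized count (y axis, from 0) in each mock control (blue) and CFIm25-m (red) sample for 10 guidance genes, with the replicate number above each point and the mean ± SD in black. DCC, UNC5C and UNC5D are higher and NRP1 and SEMA6A lower in every clone, while NTN1 clones lie on either side of the controls and NRP2 is raised in replicates 1 and 2 but at 729 in replicate 3.

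Among the receptors for semaphorins, NRP1 fell and no plexin passed the threshold. NRP1 (ENSG00000099250), a co-receptor for secreted semaphorins that also binds vascular endothelial growth factor, spans chr10:33177492-33336262 on the minus strand. Its normalized count was 636 and 603 in mock control replicates 1 and 2, and 337, 210 and 263 in CFIm25-m replicates 1, 2 and 3. All clones were far below both controls, replicate 2 the most. The mean was 620 ± 23.4 (SD, n = 2) in the controls against 270 ± 63.8 (SD, n = 3) in CFIm25-m. The log2 fold change was -1.22 (SE 0.18, adjusted p = 0.00944, limma-trend), the largest decrease among the guidance genes. The call was lost without mock control replicate 1 (adjusted p = 0.119) or 2 (0.0847), within a range of 2.03e-10 to 0.127 over 15 alternatives. The antisense gene AL121748.2 that overlaps NRP1 had at most 3.86 normalized counts in any sample. The nearest tested gene, ITGB1, which encodes an integrin chain, had an adjusted p of 0.777 (log2 fold change 0.07, limma-trend).

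NRP2, the other neuropilin, had values in the opposite direction that did not pass the threshold. Its normalized count was 731 and 716 in mock control and 1098, 1163 and 729 in CFIm25-m, so replicates 1 and 2 were raised and replicate 3 lay between the controls. The log2 fold change was 0.43 (SE 0.18, adjusted p = 0.29, limma-trend). Without CFIm25-m replicate 3 it was 0.64 (adjusted p = 0.00155), within a range of 3.57e-07 to 0.855 over 15 alternatives. Per unit of length, the ratio of NRP1 to NRP2 was 1.05 and 1.02 in mock control replicates 1 and 2, and 0.37, 0.217 and 0.434 in CFIm25-m replicates 1, 2 and 3. In mock control the neuropilins were thus about equally abundant, and in every edited clone NRP2 was the more abundant. The summed level of both was 106 ± 2.78 (SD, n = 2) normalized counts per kb in the controls against 95.1 ± 17.5 (SD, n = 3) in CFIm25-m, which differ by less than the spread between clones.

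None of the 9 plexins was called by limma-trend, edgeR or DESeq2. In each, 1 of them had an unadjusted p below 0.05. For all tested genes in limma-trend this share was 15.1%, with 0.941% called higher and 0.936% lower. PLXNC1, a receptor for SEMA7A, had the largest increase of the plexins. Its normalized counts were 105 and 116 in mock control and 210.5, 142 and 184 in CFIm25-m (log2 fold change 0.67, SE 0.20, adjusted p = 0.145, limma-trend). PLXNA1, the plexin with the highest normalized count, had 4480 and 4624 in mock control and 4445, 5027 and 4575 in CFIm25-m. Its log2 fold change was 0.04 (SE 0.093, adjusted p = 0.877, limma-trend), and the groups overlapped. PLXNA2 and PLXNA4, which are known to bind SEMA6A, had log2 fold changes of 0.34 (95% interval from -0.20 to 0.89) and -0.01 (95% interval from -0.56 to 0.54). PLXNA3 and PLXNB1 differed mainly in CFIm25-m replicate 3. PLXNA3 had 561 and 566.5 in mock control and 520, 579 and 1020 in CFIm25-m, and PLXNB1 had 3465 and 3656 against 3759, 3899 and 5889. The summed level of the plexins was 1443 ± 23.4 (SD, n = 2) normalized counts per kb in the controls against 1566 ± 164 (SD, n = 3) in CFIm25-m.

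Among the ligands, SEMA6A fell and was the most abundant guidance gene in both groups. SEMA6A (ENSG00000092421), a transmembrane semaphorin, spans chr5:116443616-116574934 on the minus strand. Its normalized count was 18890 and 18814 in mock control replicates 1 and 2, and 10672, 9792 and 12712 in CFIm25-m replicates 1, 2 and 3. Each clone was far below both controls, replicate 3 the least. The mean was 18852 ± 53.9 (SD, n = 2) in the controls against 11059 ± 1498 (SD, n = 3) in CFIm25-m, with a log2 fold change of -0.78 (SE 0.12, adjusted p = 0.0123, limma-trend). The call was lost without mock control replicate 1 (adjusted p = 0.2) or 2 (0.183) and without CFIm25-m replicate 1 (0.0787), within a range of 9.94e-16 to 0.2 over 15 alternatives. SEMA6A-AS1, an antisense gene that overlaps it, had 395 and 427 normalized counts in mock control and 255, 241 and 484 in CFIm25-m (adjusted p = 0.496, limma-trend). This is a small part of the SEMA6A count in every sample. COMMD10, 30854 bases away, had an adjusted p of 0.677 (log2 fold change 0.12, limma-trend).

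The relatives of SEMA6A differed among themselves. SEMA6B had normalized counts of 3859 and 4343 in mock control and 3058, 3538 and 2820 in CFIm25-m, with a log2 fold change of -0.39 (SE 0.11, adjusted p = 0.139, limma-trend). SEMA6D had 83.0 and 75.3 in mock control and 187, 195 and 86.6 in CFIm25-m. Its values were raised in replicates 1 and 2, with replicate 3 just above the controls. The log2 fold change was 0.89 (SE 0.32, adjusted p = 0.232, limma-trend) with all samples and 1.26 (adjusted p = 0.00185) without CFIm25-m replicate 3, within a range of 2.69e-06 to 0.786 over 15 alternatives. SEMA6C had a log2 fold change of 0.16 and its groups overlapped. Summed over these 4 genes, the level was 2765 ± 82.2 (SD, n = 2) normalized counts per kb in the controls against 1859 ± 82.4 (SD, n = 3) in CFIm25-m.

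SEMA6A also weighed on the total of the semaphorins. The summed level of the 20 genes was 4858 and 5033 normalized counts per kb in mock control replicates 1 and 2, and 3618, 3749 and 4071 in CFIm25-m replicates 1, 2 and 3. SEMA6A made up 35.5% and 34.1% of the sum in mock control and 26.9%, 23.8% and 28.5% in CFIm25-m. The 6 class 4 semaphorins summed to 1243 ± 14.6 (SD, n = 2) per kb in the controls against 1040 ± 32.3 (SD, n = 3) in CFIm25-m. The 7 secreted class 3 semaphorins summed to 610 ± 28.5 (SD, n = 2) and 583 ± 121 (SD, n = 3), which lies within the spread between clones.

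In class 4, a transmembrane class, SEMA4C came closest to the threshold. It had normalized counts of 4379 and 4432 in mock control and 3356, 3091 and 3526 in CFIm25-m, with a log2 fold change of -0.41 (SE 0.093, adjusted p = 0.0628, limma-trend). It was past the threshold with DESeq2 on the recovered reads (adjusted p = 0.0148) and without CFIm25-m replicate 3 (0.00268), within a range of 1.61e-06 to 0.591 over 15 alternatives. SEMA4A had 568 and 594.5 in mock control and 424, 387 and 443 in CFIm25-m, with a log2 fold change of -0.48 (SE 0.12, adjusted p = 0.0788, limma-trend). Without CFIm25-m replicate 3, SEMA4A had an adjusted p of 0.0154, within a range of 0.000501 to 0.658. In both genes every clone was below both controls. SEMA4D, known from the immune system and a ligand of PLXNB1, had a log2 fold change of 0.10 (95% interval from -0.11 to 0.30).

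SEMA3A, the classical repellent that acts through NRP1, had normalized counts of 544 and 500 in mock control and 600, 715 and 937 in CFIm25-m. All clones were above both controls, but with a wide spread, and the log2 fold change was 0.50 (SE 0.17, adjusted p = 0.196, limma-trend). SEMA3F, which acts mainly through NRP2, had 1489 and 1607 in mock control and 1021, 1312 and 1474 in CFIm25-m, and the log2 fold change was -0.30 (adjusted p = 0.359, limma-trend). SEMA3E had 1105 and 1127 in mock control and 832, 891 and 1619 in CFIm25-m, so that replicates 1 and 2 lay below and replicate 3 above the controls. SEMA3C had few reads, with 11 and 12 reads in mock control and 12, 26 and 20 reads in CFIm25-m. Over all semaphorins, 8 had log2 fold changes above 0 and 12 below, with a median of -0.07, with SEMA3D turning under total read count scaling. The groups did not overlap in 6 higher and 7 lower genes, or 30.0% and 35.0%. The shares were 17.0% and 19.8% of all tested genes, and 15.6% and 23.0% of tested protein-coding genes.

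None of the 8 ephrins was called by limma-trend, edgeR or DESeq2. In each, 2 of them had an unadjusted p below 0.05. For all tested genes in limma-trend this share was 15.1%, with 0.941% called higher and 0.936% lower. Ephrins are the membrane-bound ligands of Eph receptors, linked by a lipid anchor in the A class and spanning the membrane in the B class. EFNB1 had normalized counts of 474 and 507 in mock control and 279, 442 and 215.5 in CFIm25-m, the largest decrease of them (log2 fold change -0.71, SE 0.25, adjusted p = 0.207, limma-trend). All clones were below both controls, with replicate 2 closest to them, and without that replicate the adjusted p was 0.0362, within a range of 0.00667 to 0.753 over 15 alternatives. EFNB2, a marker of arteries in the embryo, had 177.5 and 156 in mock control and 250, 239 and 190.5 in CFIm25-m, with a log2 fold change of 0.43 (SE 0.17, adjusted p = 0.271, limma-trend). Without CFIm25-m replicate 3 its adjusted p was 0.0491, within a range of 0.0109 to 0.912. EFNB3, with the highest normalized count of the ephrins, had 566 and 557 in mock control and 494, 566 and 435 in CFIm25-m, with a log2 fold change of -0.18 (SE 0.13, adjusted p = 0.55, limma-trend). In 6 of the 8 ephrins CFIm25-m replicate 3 had the lowest value of all samples, or 75.0%. This was so in 32.5% of all tested genes and 37.9% of tested protein-coding genes.

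None of the 13 tested Eph receptors was called by limma-trend, edgeR or DESeq2. In each, 3 of them had an unadjusted p below 0.05. For all tested genes in limma-trend this share was 15.1%, with 0.941% called higher and 0.936% lower. The pair of Eph receptors with the largest fold changes had low counts. EPHA10, an Eph receptor whose kinase domain lacks residues needed for catalysis, had normalized counts of 30.0 and 25.1 in mock control and 47.1, 63.0 and 59.6 in CFIm25-m, with a log2 fold change of 1.01 (SE 0.27, adjusted p = 0.108, limma-trend). EPHA5 had 3.46 and 4.83 in mock control and 10.02, 9.003 and 12.5 in CFIm25-m. Its log2 fold change was 1.16 (SE 0.47, adjusted p = 0.284, limma-trend). It rests on 3 and 5 reads in the controls and 10, 10 and 13 reads in the clones. The pooled ratio was 2.49 (exact 95% interval from 1.13 to 6.25), which covers counting error only and not the spread between clones.

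Abundant Eph receptors showed small differences. EPHB4, a receptor for EFNB2 with the highest normalized count of this family, had 4285 and 4669 in mock control and 3715, 4238 and 3994 in CFIm25-m, with a log2 fold change of -0.17 (SE 0.096, adjusted p = 0.442, limma-trend). EPHA1 had 3548 and 3656 in mock control and 3338, 3557 and 4224 in CFIm25-m, with a log2 fold change of 0.03 (95% interval from -0.21 to 0.28). EPHB6, a receptor without kinase activity, had a log2 fold change of -0.03 (95% interval from -0.25 to 0.18). EPHB2 had 710 and 729 in mock control and 535, 666 and 511 in CFIm25-m, with a log2 fold change of -0.34 (SE 0.13, adjusted p = 0.256, limma-trend). The less abundant EPHA8 had the lowest log2 fold change of the tested Eph receptors, at -0.41 (SE 0.21, adjusted p = 0.404, limma-trend). Its counts were 255 and 245 in mock control and 184, 249 and 145 in CFIm25-m. EPHA8 and EPHB2 are neighbours on chromosome 1, 107245 bases apart. The summed level of the A class was 1200 ± 22.5 (SD, n = 2) normalized counts per kb in the controls against 1200 ± 89.7 (SD, n = 3) in CFIm25-m, and that of the B class was 942 ± 41.0 and 856 ± 51.9.

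EPHA4 and EPHB1 differed between clones. EPHA4 had normalized counts of 184 and 181 in mock control and 337, 278 and 174 in CFIm25-m, and EPHB1 had 250 and 262.5 against 313, 358 and 187. In both, replicates 1 and 2 lay above and replicate 3 below the controls.

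Slits are large secreted repellents and robos their receptors. None of the 6 genes was called by limma-trend, edgeR or DESeq2. In each, 2 of them had an unadjusted p below 0.05. For all tested genes in limma-trend this share was 15.1%, with 0.941% called higher and 0.936% lower. ROBO2 had normalized counts of 182 and 160 in mock control and 251, 239.5 and 284 in CFIm25-m, with a log2 fold change of 0.59 (SE 0.15, adjusted p = 0.0948, limma-trend). ROBO3, which in commissural neurons counters repulsion by slits, had 251 and 244 in mock control and 279.6, 324 and 417.5 in CFIm25-m, with a log2 fold change of 0.44 (SE 0.17, adjusted p = 0.27, limma-trend). In both genes every clone was above both controls. ROBO1, the most abundant robo, had 2717 and 2913 in mock control and 2557, 2914 and 2699 in CFIm25-m, with a log2 fold change of -0.05 (SE 0.095, adjusted p = 0.844, limma-trend), and this direction turned under total read count scaling. It lies 947276 bases from ROBO2 on chromosome 3. SLIT3 had 49.6 and 48.3 in mock control and 38.1, 37.8 and 25.01 in CFIm25-m, with a log2 fold change of -0.55 (SE 0.29, adjusted p = 0.412, limma-trend). SLIT1 and SLIT2 overlapped between groups, with log2 fold changes of -0.04 and -0.20.

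**Figure D3:**
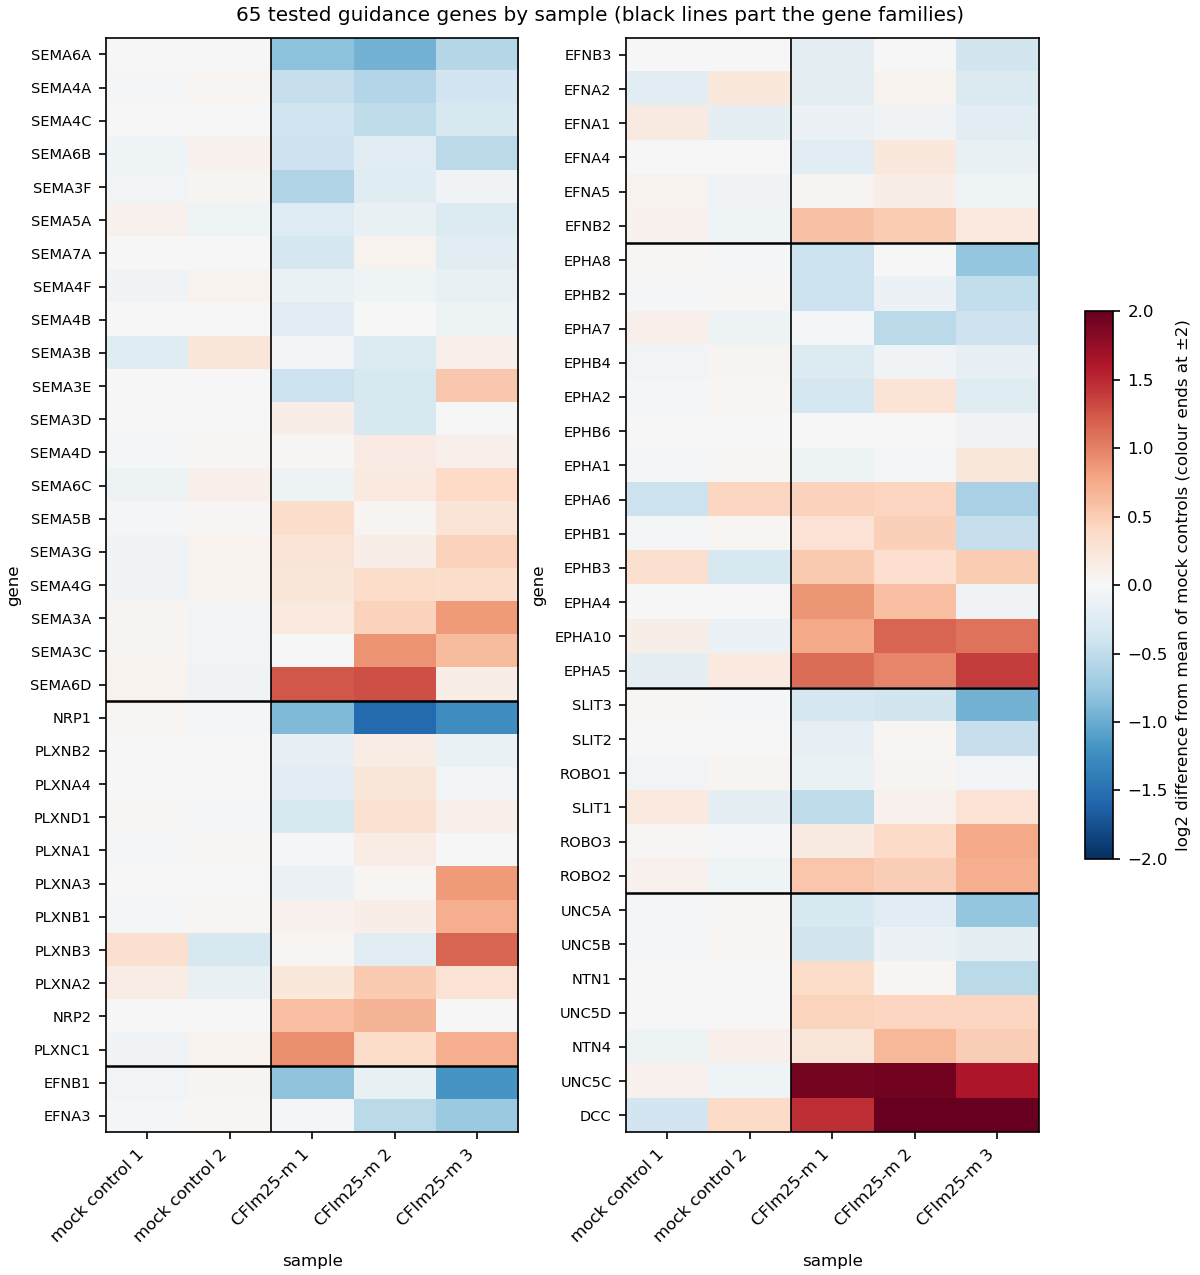
Log2 difference of each sample (columns) from the mean of the mock controls for the 65 tested guidance genes (rows), with red for higher, blue for lower, colours ending at ±2 and black lines between families. DCC and UNC5C are red and NRP1 and SEMA6A blue in every clone, while SEMA6D, NRP2 and EPHA4 are red in replicates 1 and 2 only and PLXNA3 and PLXNB1 mainly in replicate 3.

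The clones were less alike in the guidance genes than the mock controls were. The median absolute log2 difference over the 65 genes was 0.077 between the mock controls, beside 0.10 for all tested genes. Any 2 clones differed by 0.21 to 0.31, and a clone differed from a control by 0.27 to 0.39. The corresponding values for all tested genes were 0.17 to 0.27 and 0.19 to 0.29. CFIm25-m replicate 3 lay outside the range of all other samples in 32 guidance genes, or 49.2%, against 60.4% of all tested genes. Replicate 1 did so in 26 guidance genes, or 40.0%, against 33% of all tested genes, and replicate 2 in 28, or 43.1%, against 37.7%.

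Levels within the family covered a wide range. Per kb of gene length, the highest in mock control were SEMA6A at 1721, SEMA6B at 929, EPHA1 at 761, SEMA4C at 715 and EPHB4 at 696 normalized counts per kb. In CFIm25-m the order was SEMA6A at 1009, EPHA1 at 783, SEMA6B at 711, EPHB4 at 619 and SEMA4C at 540. SEMA6A was thus first in both groups, and SEMA6B and EPHA1 exchanged places. At the other end, EPHA3, EPHA5 and DCC were the lowest in mock control, with 0.0863, 0.421 and 0.857. By rank per kb among the 66 genes, UNC5C moved from 63 to 55 and NRP1 from 33 to 48.

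**Figure D4:**
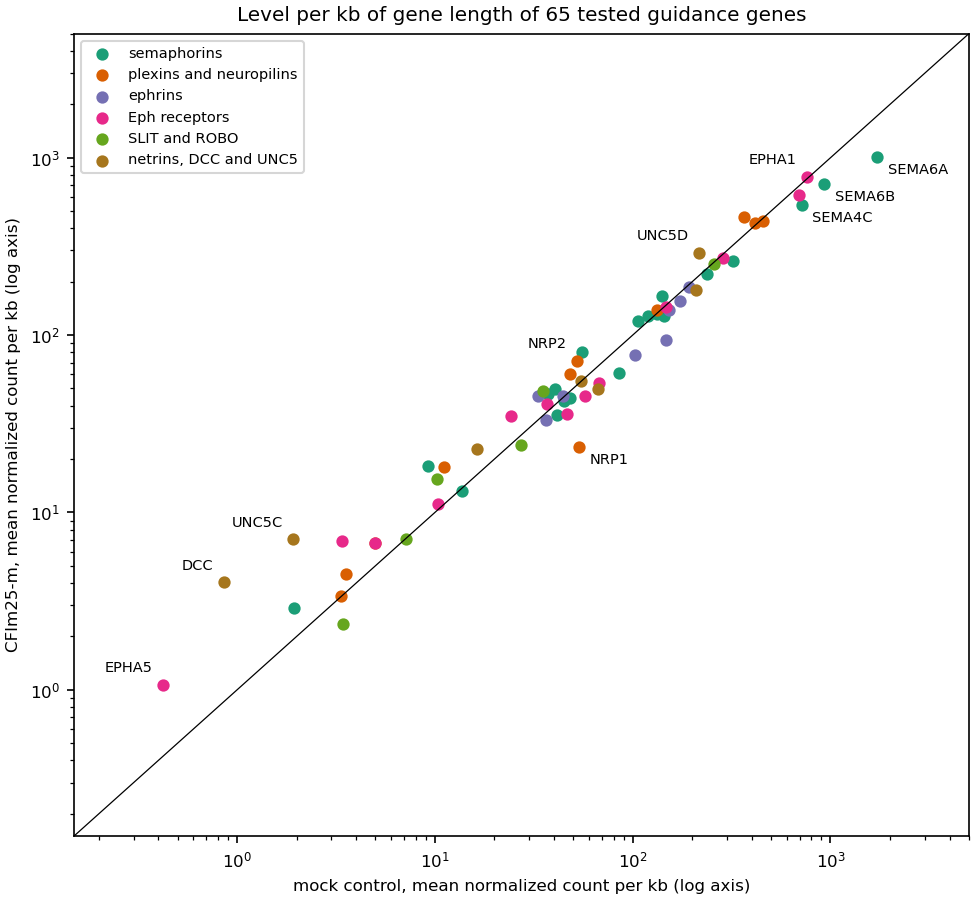
Mean normalized count per kb of gene length in CFIm25-m (y axis) against mock control (x axis), both on log axes, for the 65 tested guidance genes coloured by family, with the line of equal levels. SEMA6A is at the upper right in both groups at 1721 and 1009, NRP1 lies below the line, and DCC and UNC5C lie above it at low levels.

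Guidance genes are long. The median distance from start to end of the gene was 70422 bases in the tested family. It was 24918.5 in all tested genes and 33415 in tested protein-coding genes. The median gene length given in the table for counting was 7007, 4203 and 5046 bases in these 3 sets. The called genes were longer than the family median, with 1195732 bases for DCC, 561094 for UNC5D, 386703 for UNC5C, 158771 for NRP1 and 131319 for SEMA6A. They lie on 5 different chromosomes.

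Genes that act downstream of these receptors were looked at as a list of 66 effectors, among them Src family kinases, collapsin response mediators and PAK kinases. Of 65 tested, none passed the threshold in limma-trend in either direction, and the median log2 fold change was -0.04. An unadjusted p below 0.05 was reached by 6, beside 15.1% of all tested genes. EdgeR on the recovered reads called none, with 7 at an unadjusted p below 0.05, and DESeq2 called 1, with 5. That gene was SRGAP1, whose protein binds robos, with normalized counts of 492 and 489 in mock control and 693, 608 and 728 in CFIm25-m (log2 fold change 0.46, adjusted p = 0.0898, limma-trend). CHN2 was below the filter.

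A further list of 24 other guidance cues and co-receptors, such as draxin, repulsive guidance molecules and their receptor neogenin, had 21 tested genes. PTCH1, the receptor for sonic hedgehog, itself a guidance cue for commissural axons, was the only gene of this list past the threshold in limma-trend, while DESeq2 also called CXCL12 lower. PTCH1 fell, with normalized counts of 1495 and 1553 in mock control and 625, 570 and 485 in CFIm25-m (log2 fold change -1.45, SE 0.12, adjusted p = 0.00047, limma-trend). Of the 21 tested genes, 6 had an unadjusted p below 0.05 in limma-trend, 2 higher and 4 lower, beside 15.1% of all tested genes. The median log2 fold change of the tested list was -0.04. NEO1, which binds netrins and repulsive guidance molecules, had 2690 and 2700 in mock control and 2553, 2673 and 2635 in CFIm25-m. DSCAM, FLRT3 and ROBO4 were below the filter.

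Markers of other cell types were looked at as lists. Beside them, 15.1% of all tested genes had an unadjusted p below 0.05 in limma-trend, 0.941% were called higher and 0.936% lower. Of 12 neuronal markers, all tested, MAP2 rose (log2 fold change 1.94) and DCX fell (log2 fold change -1.14) in limma-trend, 5 had an unadjusted p below 0.05, 4 of them higher, and DESeq2 also called ELAVL4 higher. Their summed normalized count was 2586 to 2611 in mock control and 2687 to 2831 in CFIm25-m. Of 12 neural progenitor markers, 8 were tested and OTX1 rose (log2 fold change 1.10), a call at the edge of the threshold that edgeR did not make, while 5 had an unadjusted p below 0.05, 3 higher and 2 lower. PAX6, NEUROG2, HES5 and LHX2 were below the filter, and the summed count was 14263 to 14946 in mock control and 12256 to 15447 in CFIm25-m. Of 8 endothelial markers, 5 were tested and none was called by any of the 3 tools, 1 having an unadjusted p below 0.05, with PECAM1, CDH5 and ESAM below the filter and sums 1239 to 1244 in mock control and 805 to 1458 in CFIm25-m. None of 12 mesoderm and endoderm markers, with 4 tested, and none of 11 neural crest and mesenchymal markers, with 8 tested, was called by limma-trend, with 0 and 3 at an unadjusted p below 0.05. DESeq2 called COL1A1 of these lower. Their sums were between 2754 and 2829 and between 15688 and 16130 in mock control, and between 2793 and 3820 and between 12606 and 15854 in CFIm25-m. No marker was at 0 in all samples, and the part of such cells in the differences of the guidance genes was not tested.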

How the data were processed

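Poly(A+) RNA-seq of H9 cells gave 5 samples, 2 control and 3 CFIm25-m, grouped by their labels. The name mock control and the description as clones are the study's. The authors deposited 1 table of normalized counts, a signal in which the reads of a gene are divided by the size factor of the sample, with group means and their own fold changes and p-values, which were not used. The submitters' processing notes name hg38, HISAT2, featureCounts, Subread and DESeq2. The annotation release and strand setting are not given in the sources used here. Values came in steps of 1 read in every sample (100% of values, tolerance 1e-06 of a read), so reads could be recovered. The test was limma-trend (limma 3.58.1, R 4.3.3, lmFit and eBayes) on log2(value + 1), a scale that understates changes of low genes. It took the 19232 of 33857 genes that reached 10 in 2 or more samples, two-sided, with Benjamini-Hochberg adjustment over all of them and a threshold of 0.05. With 2 samples against 3, a permutation of samples could not give a p below 0.1.

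Named by rule were NUDT21 and every guidance gene with an unadjusted p below 0.05. In each of 6 families, so were the gene with the highest mean count and those with the highest and lowest log2 fold change. Other genes were named after their values were seen. The family and the lists were chosen with earlier results of these data known. Alternatives were other scalings (total read count, TMM), pseudocounts of 0.1 and 5, no filter or a minimum of 50, no trend, edgeR 4.0.16 and DESeq2 1.42.0 on recovered reads, the replicate number as a block, and the removal of each sample. Tests were checked on simulated data with the same dispersion in every gene, which does not copy the spread between these clones. The changed genes there had higher mean counts than DCC and larger changes than UNC5D, so the check does not cover such cases. Replicate numbers did not pair clones.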

Additional observations from a re-analysis of the deposited data

How the results depend on the processing

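The 5 called genes kept their direction under every alternative run, and the calls lost when a sample is left out are given beside each gene. With no mean-variance trend UNC5C alone was past the threshold, so 1 guidance gene was higher and 0 lower, with 21 and 25 of all tested genes. DESeq2 on the recovered reads called 349 genes higher and 279 lower, and 1 effector higher. When a sample was left out, between 0 and 7 guidance genes were higher and between 0 and 5 lower, and among all genes between 25 and 536 higher and between 34 and 533 lower. Effectors called higher ranged from 0 to 3. When a mock control is left out, the lone control is assumed to vary like the clones. Of the 65 tested guidance genes, 21 changed the sign of their log2 fold change under at least 1 alternative, 8 of them with total read count scaling, and none of the 5 called genes did. Among the genes the naming rule chose, 2 turned: the log2 fold change of PLXNA1 ranged from -0.013 to 0.075 when a sample was left out, below 0 without CFIm25-m replicate 2, and that of ROBO1 from -0.099 to 0.0014, above 0 without mock control replicate 2. With total read count scaling ROBO1 was at 0.0201. For none of these was the cause tested, beyond the fewer samples in a fit that leaves one out. Scaling moved the median log2 fold change of all tested genes from -0.01 to at most 0.06.

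Mock control and CFIm25-m samples share the replicate numbers 1 and 2 by label only, and the deviations of same-numbered samples had correlations of 0.0072 and 0.018. A fit with the replicate number as a block leaves few degrees of freedom and fits replicate 3 alone. With it, 11 guidance genes were higher and 9 lower, with 1043 and 1064 of all tested genes and 5 and 2 effectors. This fit gave the lowest adjusted p-value in each range over alternatives given above. Depth limits EPHA3, EPHA5, DCC and SEMA3C, which rest on few reads.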
